A study of Mus musculus with 51 samples.

Results

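Cells that received an empty vector (EV) plasmid were compared between day 2 and day 0, which made up 11 of the 51 libraries of the series. They were chosen by their labels alone: 5 libraries of day 0, from experiments 1 to 5, and 6 libraries of day 2, from experiments 1 to 6. The cells were mouse C3H/10T1/2-SAM cells. C3H/10T1/2 is a mesenchymal line that can be driven toward fat, bone, cartilage or muscle, and the SAM derivative carries dCas9-VP64 and MS2-P65-HSF1, a transcription activator that a guide RNA directs to a chosen gene. The study raised endogenous Pparg with a guide plasmid (P), with or without a second guide for Ybx1 (PY), and the EV cells were its control with neither guide. All 3 kinds of cells were transfected with 250 ng of plasmid in total, were given 5 µM rosiglitazone 48 h later, which is day 0, and were followed to day 4. The EV cells therefore also carried the SAM activator, a transfected plasmid and the drug. The labels do not say whether the day 0 RNA was taken before or after the drug was added, and they name no hormone cocktail. Between day 0 and day 2 the time on rosiglitazone, the time in culture and the time since transfection all changed together and cannot be told apart.

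Several well-known programmes are at work in such cultures. Rosiglitazone is an agonist of PPARγ, the nuclear receptor that directs fat cell formation and binds with RXR to genes such as Fabp4, Cd36 and Adipoq. Cells that pass through the cell cycle make S phase messages under E2F factors, and then messages for mitosis through CCAAT boxes bound by NF-Y and the cell cycle homology region (CHR) bound by the MuvB complex. Interferon-stimulated genes, switched on by the ISGF3 complex at interferon-stimulated response elements (ISRE), are known to respond to viruses and foreign nucleic acids. NF-kB drives chemokine and cytokine genes, together with its own inhibitors Nfkbia and Tnfaip3.

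The promoters of 6 genes, 3 that rose and 3 that fell, are shown because their groups carried the clearest changes and each window holds a motif known for its group, which not every member's does: the window of Oasl1, an interferon gene, has no ISRE match. Each window runs from 250 bases before to 50 bases after the annotated start (RefSeq, GRCm38.p6), 5′ to 3′ on the gene's strand, and capitals mark the motif searched, on either strand. Ccnb2 (chr9:70421505-70421804, minus strand), Cenpf (chr1:189688037-189688336, minus strand) and Plk1 (chr7:122159185-122159484, plus strand) are mitosis genes, with CHR (TTTGAA) and CCAAT box (CCAAT) in capitals:
Ccnb2: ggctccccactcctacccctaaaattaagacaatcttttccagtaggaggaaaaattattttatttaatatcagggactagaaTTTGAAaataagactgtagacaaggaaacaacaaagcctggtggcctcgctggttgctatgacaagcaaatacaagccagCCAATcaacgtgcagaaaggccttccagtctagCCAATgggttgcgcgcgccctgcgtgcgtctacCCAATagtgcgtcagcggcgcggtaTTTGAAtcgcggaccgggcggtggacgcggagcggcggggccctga
Cenpf: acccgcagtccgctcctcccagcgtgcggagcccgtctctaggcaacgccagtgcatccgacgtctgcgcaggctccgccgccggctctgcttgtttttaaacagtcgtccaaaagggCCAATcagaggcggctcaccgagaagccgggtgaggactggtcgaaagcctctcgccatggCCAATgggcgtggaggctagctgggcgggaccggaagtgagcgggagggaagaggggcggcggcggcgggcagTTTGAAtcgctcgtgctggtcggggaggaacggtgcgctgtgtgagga
Plk1: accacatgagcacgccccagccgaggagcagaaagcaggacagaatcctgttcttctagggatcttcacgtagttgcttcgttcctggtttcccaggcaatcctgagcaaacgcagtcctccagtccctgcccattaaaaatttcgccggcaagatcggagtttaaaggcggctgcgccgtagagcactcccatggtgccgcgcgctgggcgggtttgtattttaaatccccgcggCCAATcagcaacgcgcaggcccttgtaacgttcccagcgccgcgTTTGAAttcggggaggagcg
Cxcl10 (chr5:92348840-92349139, minus strand) and Rsad2 (chr12:26456403-26456702, minus strand) respond to interferon, with the ISRE (GAAA, any 2 bases, GAAA) in capitals, which lies on the opposite strand in Rsad2:
Cxcl10: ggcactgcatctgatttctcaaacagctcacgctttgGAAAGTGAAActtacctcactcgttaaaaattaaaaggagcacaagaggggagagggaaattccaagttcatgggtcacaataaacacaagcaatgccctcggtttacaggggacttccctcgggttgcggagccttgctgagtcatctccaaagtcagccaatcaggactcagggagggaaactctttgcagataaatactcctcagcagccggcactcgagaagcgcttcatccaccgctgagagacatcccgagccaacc
Rsad2: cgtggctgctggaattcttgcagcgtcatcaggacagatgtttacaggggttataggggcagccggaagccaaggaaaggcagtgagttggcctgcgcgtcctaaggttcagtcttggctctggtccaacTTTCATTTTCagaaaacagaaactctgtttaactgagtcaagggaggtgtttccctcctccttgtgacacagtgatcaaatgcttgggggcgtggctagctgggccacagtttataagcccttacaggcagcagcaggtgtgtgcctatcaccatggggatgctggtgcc
Cxcl1 (chr5:90890995-90891294, plus strand) encodes a neutrophil chemokine and holds 2 overlapping matches to the kB motif, in capitals:
Cxcl1: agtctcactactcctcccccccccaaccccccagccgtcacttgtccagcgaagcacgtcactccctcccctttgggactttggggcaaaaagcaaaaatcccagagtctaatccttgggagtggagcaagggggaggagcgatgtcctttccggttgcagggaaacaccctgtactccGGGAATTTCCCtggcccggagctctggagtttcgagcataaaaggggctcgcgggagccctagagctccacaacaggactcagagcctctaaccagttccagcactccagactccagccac

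Over whole lists, the CHR stood in 19 of 26 windows of the mitosis genes (73.1%), against 17.9% of all 32851 windows in the table. The CCAAT box stood in 76.9% of the mitosis windows and 67.9% of the DNA replication windows, against 37.4% of all. The E2F motif (TTTCCCGC or TTTGGCGC) stood in 9 of 28 DNA replication windows (32.1%), against 1.56% of all, and in 0 of the 26 mitosis windows. ISRE matches were found in 15 of 31 windows of the interferon list (48.4%), against 3.44% of all. The kB motif, whose search was added after the design was fixed, stood in 13 of 19 windows of the chemokine and cytokine list (68.4%), against 8.46% of all. It was not confined to that list, with 30% of the AP-1 and immediate early windows and 25.8% of the interferon windows. The AP-1 motif (TGA, any 1 base, TCA) stood in 0 of 20 windows of the AP-1 and immediate early list. It stood in 25.8% of the interferon windows, against 7.81% of all. A perfect PPAR element (AGGTCA, any 1 base, AGGTCA) stood in 0 of 31 PPAR target windows and in 0.0396% of all. These are matches of letters in a short window and were not tested for binding.

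Library totals ran from 5807051 to 44906305 counts on day 0 and from 11261100 to 71091681 on day 2. The day 0 library of experiment 3 stood apart before any comparison: it had the lowest total, 84.8% of its counts in protein-coding genes against 93.1% to 94.8% in the other day 0 libraries, and 24.2% of them in its 10 highest genes against 7.44% to 8.52%. The first principal component of the 11 libraries held 43.9% of the variance and did not separate the days, since experiments 4 and 5 of day 0 and experiment 4 of day 2 lay at its positive end. The second held 20.6%, and within each of the 5 experiments the day 2 library lay lower on it than the day 0 library. The mesenchymal identity of the cells showed in all libraries: summed CPM (counts scaled by effective library size) of 10 mesenchymal markers ran from 11100 to 14400 on day 0 and from 11300 to 22900 on day 2. Macrophage, endothelial and epithelial markers (5 of 10, 6 of 10 and 7 of 12 tested) summed to at most 17.7, 41.2 and 11 CPM in any library. The defining markers Ptprc, Adgre1, Cdh5, Epcam and Krt5 were too low to be tested, and among those tested Fcgr1 (0.281 to 0.848 CPM) and Krt19 (0.0957 to 0.297) rose and Kdr (0.771 to 0.272) and Pecam1 (1.02 to 0.25) fell. In bulk libraries such as these, fewer cells of a type and less RNA per cell cannot be told apart.

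Of 17015 genes tested with the edgeR quasi-likelihood test, with experiment as a block and Benjamini-Hochberg adjustment over all of them, 3746 passed an adjusted p of 0.05, which is 22% of those tested. On day 2, 1742 were higher (10.2%) and 2004 were lower (11.8%), while the median change over all genes was 0.0052 on the log2 scale. Most changes were small: 2020 of the genes that passed had a fold below 1.5, 417 were more than 2-fold higher and 391 more than 2-fold lower. In 3694 of the 3746 genes the direction was that of at least 4 of the 5 experiments with both days. Without the experiment block, 1241 genes passed (488 higher, 753 lower), and with the EV libraries of days 0 and 2 alone, block kept, 1721 passed. Without the EV libraries of experiment 2 or of experiment 5, 2380 and 2286 passed. Changes are fitted log2 values of day 2 against day 0 with their standard error (SE), beside CPM levels, whose mean and SD are over 5 libraries on day 0 and 6 on day 2.

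The 12 largest rises among protein-coding genes with a mean of at least 5 CPM included a fat cell gene and several secreted or matrix proteins, and the 12 largest falls were mostly chemokine, cytokine and interferon genes. Fabp4 (ENSMUSG00000062515, chromosome 3, 10204088 to 10208576, minus strand), the fatty acid binding protein of fat cells, rose by the most. Igf1, the insulin-like growth factor, came second with a log2 change of 2.71 ± 0.378 (SE, adjusted p = 3.06e-06). The other 10 lay between 2.1 (Sprr1a, a small proline-rich protein of squamous epithelia) and 1.75 (Slit3, an axon guidance ligand). They were Fah, the last enzyme of tyrosine breakdown, the ubiquitin ligase gene Neurl1b, the endonuclease Ankle1, the matrix protein Efemp1, the Wnt antagonist Nkd1, Arhgap20, the myo-inositol transporter Slc5a3, Mgst3 and those already named. Among the falls, Lif (a cytokine of the IL-6 family) changed by -2.82 ± 0.449 and the others by -2.69 (Cxcl10) to -2.21 (Oasl1 and Ccrl2).

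**Figure D1:**
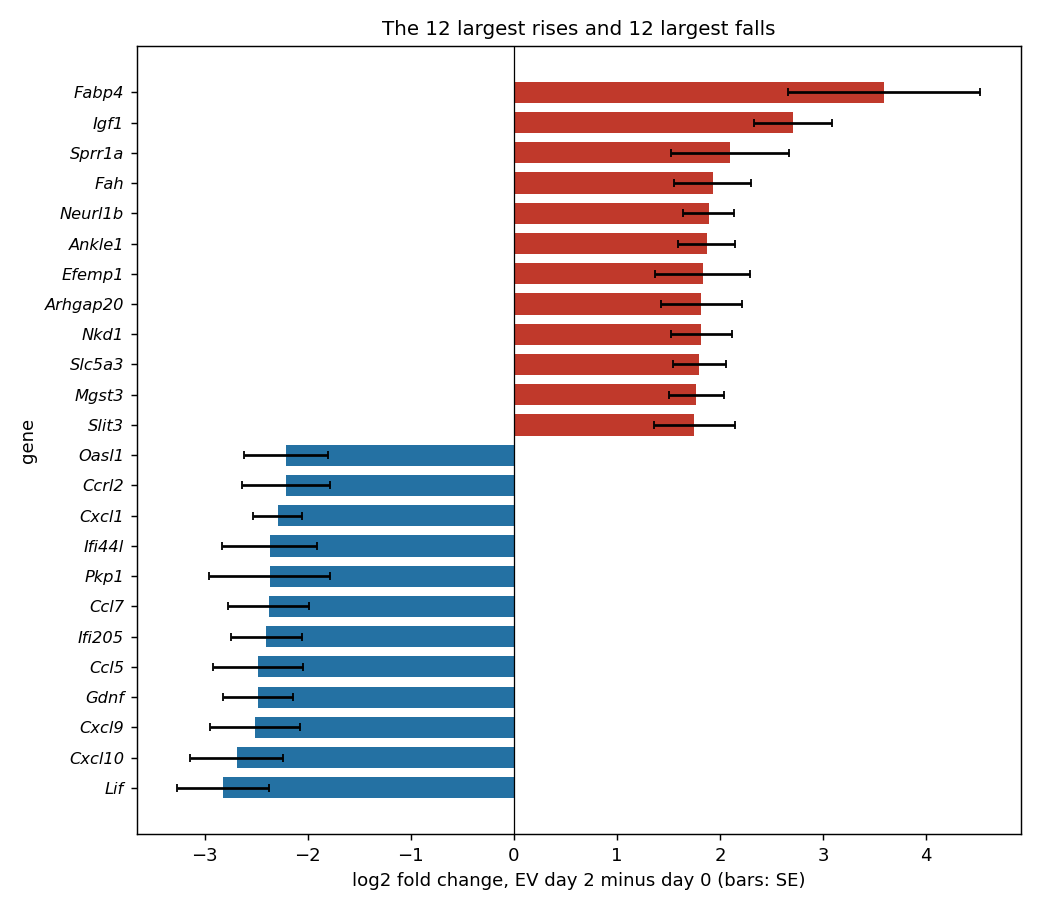
Fitted log2 fold change of day 2 against day 0 in EV cells for the 12 largest rises (red) and the 12 largest falls (blue) among protein-coding genes past the threshold, with bars for the SE. Fabp4 reached 3.59 and Lif -2.82, and 8 of the 12 falls are chemokines or interferon-responsive genes.

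Igf1 showed how far experiments could differ in level while moving the same way. Day 0 libraries of experiments 1 to 5 held 28.6, 21.1, 49.9, 2.49 and 3.43 CPM, and day 2 libraries ranged from 13.3 over a median of 113 to 175 CPM. Experiments 4 and 5 were low on day 0, the groups overlapped, and Igf1 was higher on day 2 within all 5 experiments. Slc5a3 had 76.3, 72.7, 120, 42.5 and 39.5 CPM on day 0 and 128 to 399 (median 222) on day 2, with no overlap (1.80 ± 0.259, adjusted p = 4.44e-06). Efemp1 had day 0 values of 78.2, 7.47, 105, 1.6 and 3.07 CPM, of which 2 lay inside the day 2 range (28 to 106), and without the experiment block its log2 change was 0.71 with an adjusted p of 0.678. Sprr1a, Nkd1 and Slit3 also no longer passed without the block (adjusted p = 0.188, 0.156 and 0.214). For Sprr1a the experiment 4 libraries were far above the others on both days (11.7 and 45.1 CPM).

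Mitosis genes rose together. Of 30 tested, 29 rose (96.7%, against 10.2% of all genes), with a median log2 change of 1.25. Of them, 20 had day 2 libraries all above the day 0 libraries, against 2.32% of all genes. Ccnb2, the cyclin partner of Cdk1, held 15.6, 9.22, 18.4, 25.5 and 15.6 CPM on day 0 and 34.6 to 52.4 (median 42.8) on day 2. The groups did not overlap, and the fitted change was 1.52 ± 0.231 (2.87-fold, adjusted p = 1.02e-05; chromosome 9, 70407692 to 70421547). Plk1, the polo-like kinase that drives mitotic entry, held 13.4, 13.5, 27.1, 35.4 and 21 CPM on day 0 and 40.4 to 73.5 (median 51.1) on day 2, again with no overlap (1.37 ± 0.205, adjusted p = 8.04e-06). Cenpa, the histone variant of centromeres, changed by 1.43 ± 0.217 and Cenpf, a kinetochore protein, by 1.46 ± 0.231. For Cenpf the day 0 library of experiment 3 (86.1 CPM, the others 25 to 42.6) lay inside the day 2 range of 71.3 to 171.

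The proliferation marker Mki67 rose from 75, 69.9, 196, 151 and 74.6 CPM on day 0 to 171 to 427 (median 233) on day 2, a change of 1.33 ± 0.22 with an adjusted p of 3.16e-05. Experiments 3 and 4 were high on day 0, and the groups overlapped through experiment 3 (196 CPM) alone. Experiment 4, at 151 CPM, lay below the day 2 range. Top2a, the topoisomerase of dividing cells, rose from a mean of 148 ± 52.3 to 324 ± 65.8 CPM and Cdk1 from 75.2 ± 22.9 to 140 ± 22.1, neither with overlap. Tpx2, a spindle assembly factor, was the member that did not pass (156 and 180 CPM, adjusted p = 0.433). Summed over the list, the CPM ran from 857 to 1870 on day 0 and from 2070 to 3430 on day 2. The count of 29 was the same with each of the 11 libraries or each experiment left out, and was 25 without the experiment block.

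DNA replication genes moved the same way by less. Of 30 tested, 24 rose (80%, against 10.2% of all genes), with a median log2 change of 0.64. Rrm2, the ribonucleotide reductase subunit that limits nucleotide supply, held 30.9, 27.2, 53.8, 125 and 45.4 CPM on day 0 and 74.7 to 196 (median 103) on day 2. Experiment 4 was high on both days and made the groups overlap (1.26 ± 0.238, adjusted p = 0.000159). Tk1, thymidine kinase, rose by 1.05 ± 0.194 without overlap, Uhrf1, which keeps DNA methylation at the fork, by 0.97 ± 0.197, and Pole, a leading strand polymerase, by 0.86 ± 0.168. The helicase subunits Mcm2, Mcm3, Mcm4, Mcm5 and Mcm7 rose by 0.45 to 0.83, while Mcm6 (0.16) and the sliding clamp Pcna (0.27) did not pass. Without the experiment block only 3 of the 30 passed, among which Tk1, whereas Rrm2 (adjusted p = 0.191), Uhrf1 (0.142) and Pole (0.0536) did not. Without the day 0 library of experiment 1, or without the EV pair of experiment 2, 14 passed.

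Replication-dependent histone genes, whose messages are made in S phase, gave 11 rises among 18 tested. That is 61.1%, against 10.2% of all genes, and the median was 0.85. Hist1h1b, a linker histone, held 37.1, 27, 68.9, 54.9 and 38.2 CPM on day 0 and 61.1 to 127 (median 88) on day 2 (1.13 ± 0.323, adjusted p = 0.00925). It missed the threshold without the block (adjusted p = 0.14) and without the EV pair of experiment 2 (0.0796). Hist1h3c, Hist1h2bj and Hist1h3e rose by 1.07, 0.98 and 0.93, and none of these 3 passed without the day 0 library of experiment 1 or the day 2 library of experiment 2. Histone genes are near-identical copies of one another, so reads could be shared among them, and how shared reads were counted is not given in the sources used here. Messages of this class mostly lack a poly(A) tail, and the libraries were made from total RNA with ribosomal RNA removed. Their count moved with the setting: 2 passed without the experiment block, 4 without the day 0 library of experiment 1, 6 without the day 2 library of experiment 2 and 2 without the EV pair of experiment 2.

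Cell cycle inhibitors and genes of quiescence moved both ways, with 7 of 19 higher (36.8%) and 3 lower (15.8%), against 10.2% and 11.8% of all genes. Cdkn1a, the p21 inhibitor and a p53 target, held 177, 203, 185, 227 and 140 CPM on day 0 and 102 to 138 (median 117) on day 2, with no overlap (-0.64 ± 0.153, adjusted p = 0.00212). Btg2, an antiproliferative p53 target, fell by 1.10 on the log2 scale, with an adjusted p of 0.153 without the block. Cdkn2c, the p18 inhibitor that E2F factors are known to induce, rose by 0.87 ± 0.185. The pocket proteins Rbl1 (0.57) and Rbl2 (0.48) and the inhibitor Cdkn1b (0.43), chosen after their values were seen, also rose.

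**Figure D2:**
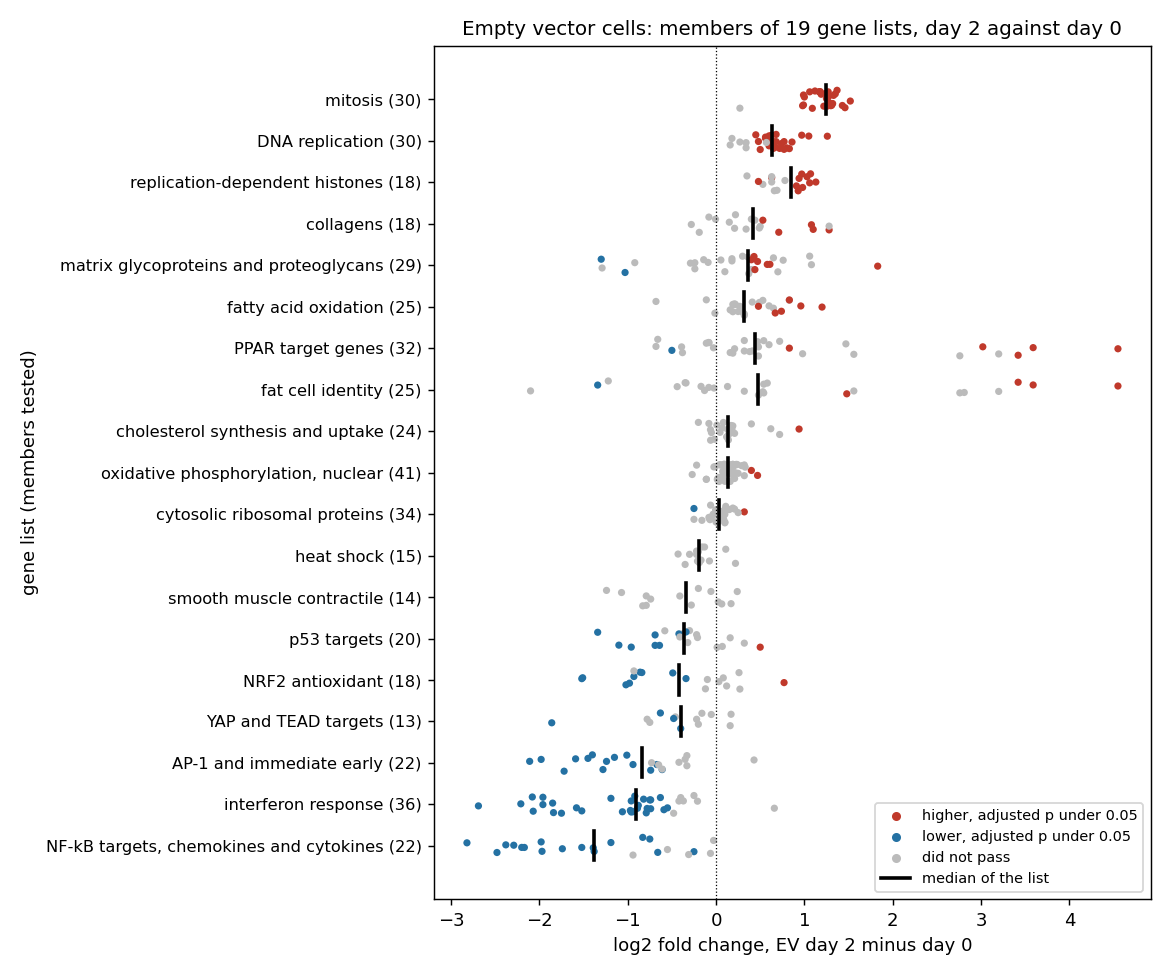
Each point is a gene of 1 of 19 lists, placed by its fitted log2 change from day 0 to day 2 in EV cells, coloured by whether it passed an adjusted p of 0.05, and the black line is the list's median. Mitosis genes sit around 1.25, the chemokine and cytokine list around -1.39 and the interferon list around -0.9, while heat shock and ribosomal protein genes lie near 0.

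Interferon-responsive genes fell together. Of 36 tested, 29 fell (80.6%, against 11.8% of all genes), with a median log2 change of -0.9. In 15 the day 2 libraries were all below the day 0 libraries, against 2.55% of all genes. Cxcl10, a chemokine that draws T cells, held 81, 109, 60.6, 145 and 134 CPM on day 0 and 4.6 to 43.9 (median 12.2) on day 2. No library overlapped, and Cxcl10 was 6.47-fold lower (-2.69 ± 0.452, adjusted p = 3.64e-05; chromosome 5, 92346638 to 92348889). Rsad2, which encodes the antiviral protein viperin, held 250, 325, 211, 243 and 611 CPM on day 0 and 23.1 to 169 (median 62.7) on day 2, a change of -2.08 ± 0.456. Oasl1, of the 2′-5′ oligoadenylate synthetase family, fell by 2.21 and the GTPase gene Mx1 by 2.07 on the log2 scale.

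Ifit1, which binds foreign RNA caps, was among the most abundant of the list, with 2970, 2950, 3380, 2470 and 3200 CPM on day 0 and 402 to 1820 (median 734) on day 2. It fell without overlap by 1.52 ± 0.275 on the log2 scale (adjusted p = 9.89e-05). The ubiquitin-like modifier Isg15 fell by 1.06 ± 0.283, with an adjusted p of 0.124 without the block, and it also missed the threshold without the day 0 library of experiment 5. The signalling genes Stat2 (-0.74), Irf9 (-0.75) and Irf1 (-0.78), chosen after their values were seen, fell by less than these effectors. Irf7 (531 and 345 CPM), Bst2, Oas1a, Oas2, B2m, Psmb9 and Ifi27 did not pass. Summed CPM of the list was 14900 to 22800 on day 0 and 5970 to 13400 on day 2. The 2 highest day 2 values of Ifit1 came from experiments 2 and 3. Without the experiment block 16 members passed, with the EV libraries alone 25, and with single libraries left out 25 to 29.

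Chemokine, cytokine and other NF-kB target genes gave 17 falls among 22 tested (77.3%, against 11.8% of all genes). Their median of -1.39 was the lowest of the 42 lists. Cxcl1, a neutrophil chemokine (ENSMUSG00000029380, chromosome 5, 90891241 to 90893115, plus strand), had the smallest p of the 24 genes with the largest changes. Day 0 libraries of experiments 1 to 5 held 55.3, 38.2, 48.4, 67.4 and 49 CPM and day 2 libraries 5.45 to 19.3 (median 10.4), a 4.9-fold fall without overlap (-2.29 ± 0.239, adjusted p = 3.13e-08). Ccl5 and Ccl7, chemokines for T cells and monocytes, fell by 2.48 and 2.38 on the log2 scale, and neither overlapped. Lif held 17.7, 32.1, 5.42, 37.5 and 41.2 CPM on day 0 and 1.39 to 11.5 (median 3.74) on day 2, so that the day 0 library of experiment 3 lay among those of day 2. Its fall was 7.06-fold, and 4.56-fold without the day 0 library of experiment 2. Ccl2 (244 ± 55 to 61.5 ± 22.1 CPM), Il6 (23.2 ± 11.3 to 6.25 ± 1.77) and the inhibitor Nfkbia (124 ± 26.9 to 48.2 ± 7.8), chosen after their values were seen, fell without overlap. Vcam1, Icam1, Sod2, Ptx3 and Lcn2 did not pass. In the EV libraries alone 11 members passed.

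AP-1 and immediate early genes, which respond to growth factors and stress, gave 14 falls among 22 tested. That is 63.6%, against 11.8% of all genes, and the median was -0.84. Junb held 163, 250, 99.7, 428 and 240 CPM on day 0 and 36.3 to 162 (median 91.4) on day 2, with overlap (-1.40 ± 0.279, adjusted p = 0.000277; 0.0539 without the block). Fosl1, the Fra-1 subunit, held 66.2, 112, 36.2, 234 and 147 CPM on day 0 and 12.5 to 194 (median 34.9) on day 2. Experiment 4 kept 194 CPM of Fosl1 on day 2 while the other 5 libraries had at most 52.2, and without the day 0 library of experiment 2 its fall no longer passed. Egr2 fell by 1.72 ± 0.413, with an adjusted p of 0.0514 without the block, and Fos by 1.28 ± 0.277. The count moved with the setting: 5 members passed without the block, 5 with the EV libraries alone and the block, 6 without the EV pair of experiment 2 and 9 without that of experiment 5.

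**Figure D3:**
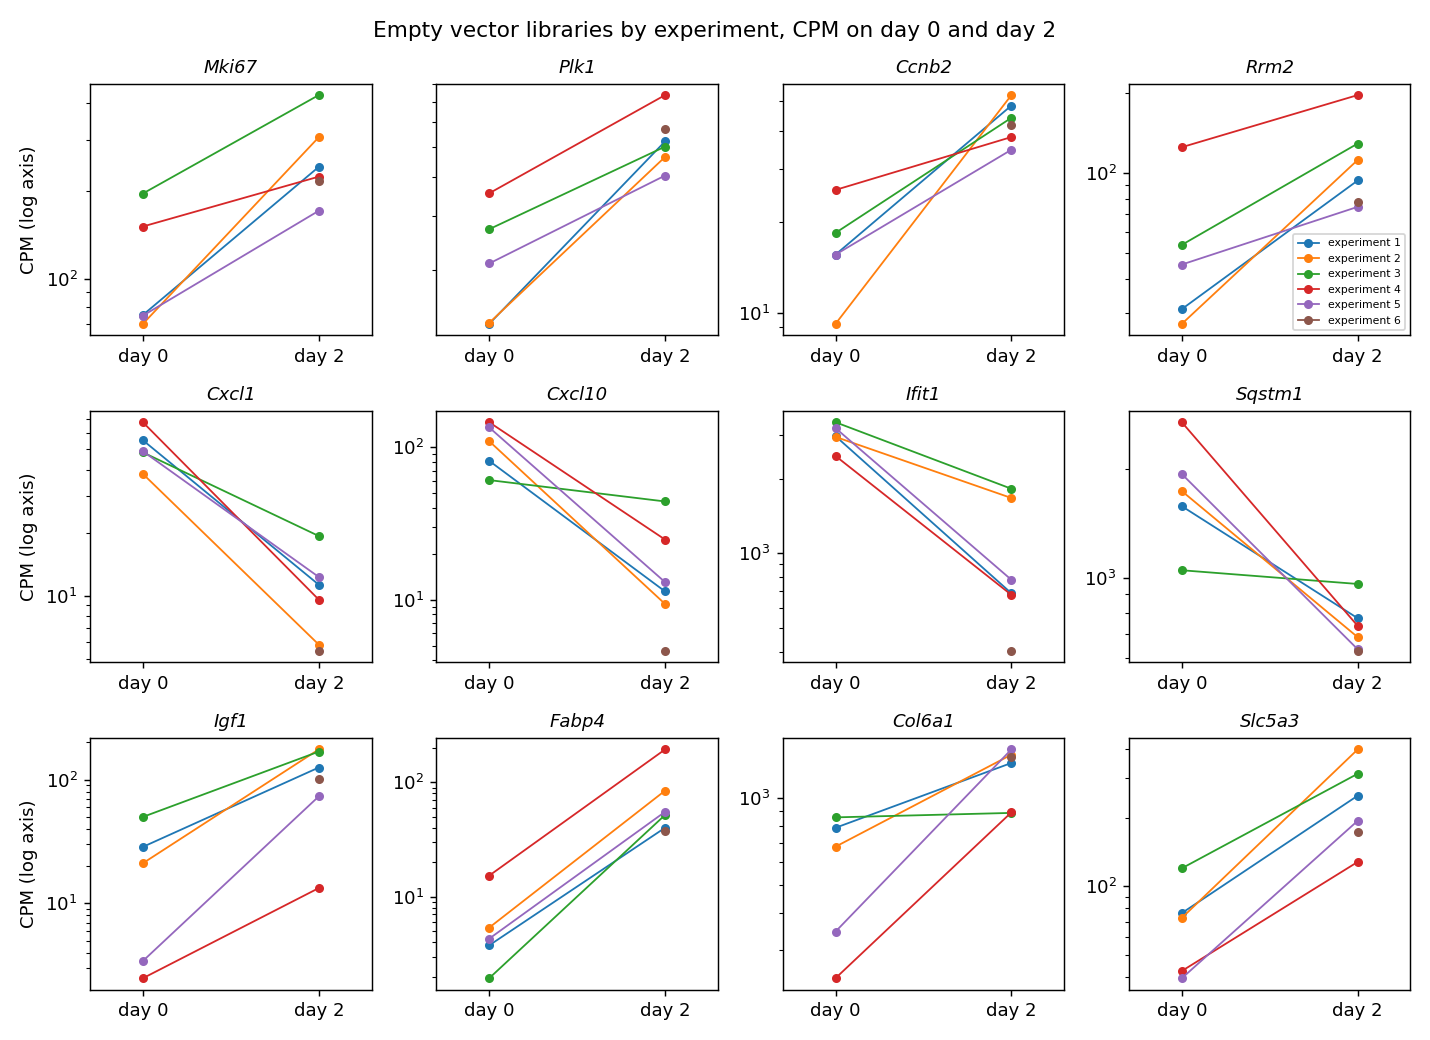
CPM on a log axis in the EV libraries of day 0 and day 2 for 12 genes, with a line joining the libraries of 1 experiment; experiment 6 has a day 2 library alone. Mitosis and replication genes rise in all 5 experiments, Cxcl1, Cxcl10 and Ifit1 fall in all 5, and Sqstm1 and Cxcl10 change least in experiment 3.

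Genes of several stress responses were lower on day 2. Of 18 NRF2 antioxidant genes tested, 9 fell (50%, against 11.8% of all genes) and 1 rose (median -0.42). Gclm, the regulatory subunit of glutathione synthesis, held 82.9, 74, 93.5, 110 and 104 CPM on day 0 and 28 to 71.8 (median 40.4) on day 2, with no overlap (-0.98 ± 0.158, adjusted p = 2.28e-05). Slc7a11, the cystine importer, fell by 1.52 ± 0.321, the catalytic subunit Gclc by 0.86 and the glutathione transferase Gsta4 by 0.93, the last with an adjusted p of 0.0976 without the block. Sqstm1, the autophagy receptor p62, is an NRF2 target but was counted in the lysosome and autophagy list. It held 1580, 1740, 1050, 2700 and 1940 CPM on day 0 and 627 to 962 (median 710) on day 2. It did not overlap and fell 2.39-fold (-1.26 ± 0.181, adjusted p = 4.63e-06; chromosome 11, 50199366 to 50210827). In the NRF2 list the secreted superoxide dismutase Sod3 was the member that rose (0.77).

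Of 20 p53 targets 8 fell (40%, against 11.8% of all genes) and 1 rose, with a median of -0.36. Mdm2, the ubiquitin ligase of p53, held 372, 356, 227, 591 and 304 CPM on day 0 and 155 to 235 (median 174) on day 2, which overlapped through 1 library of each day (-0.96 ± 0.128, adjusted p = 1.72e-06). Plk2 fell by 1.34 and the receptor gene Eda2r by 0.69 on the log2 scale. Among genes of the unfolded protein and integrated stress responses, 7 of 24 fell (29.2%) and 3 rose (12.5%, against 10.2% of all genes). The falls included the transcription factors Atf4 (-0.76 ± 0.156) and Ddit3 (-0.64 ± 0.174). Ddit3 missed the threshold without the block (adjusted p = 0.118) and without the EV pair of experiment 5 (0.0737). The rises were the endoplasmic reticulum chaperones Hsp90b1 (0.39), Calr (0.39) and Pdia3 (0.38). Of these, Hsp90b1 did not pass without any of 4 single libraries (day 0 of experiments 1 and 2, day 2 of experiments 4 and 6). Of the 15 heat shock genes, 0 passed the edgeR test, 3 had an unadjusted p under 0.05 and 1 passed with DESeq2, and the changes lay between -0.43 and 0.22. The SAM activator carries parts of HSF1 and P65 in both groups, and an effect of it on these or other genes was not tested. Vegfa, the angiogenic factor, fell by 1.14 ± 0.264 and the hexokinase Hk2 by 0.89 ± 0.214, with adjusted p of 0.0806 and 0.123 without the block, while the muscle type phosphofructokinase Pfkm rose by 0.63.

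Collagen VI genes, a pair of Wnt receptors and some other matrix genes rose. Of 18 collagens 5 rose (27.8%, against 10.2% of all genes), with a median of 0.42. All 3 chains of collagen VI were among the rises. Col6a1 held 789, 679, 857, 239 and 346 CPM on day 0 and 888 to 1470 (median 1350) on day 2, with no overlap (1.08 ± 0.243, adjusted p = 0.00109). In experiment 3 it went only from 857 to 888 CPM. Col6a2 and Col6a3 changed by 1.10 and 1.28, and Col1a2 rose by 0.53, while Col1a1 (2040 ± 749 and 2980 ± 1090 CPM) did not pass (adjusted p = 0.0735). Lrp5, a Wnt co-receptor, rose by 1.11 ± 0.157 and the receptor Fzd4 by 0.72, the latter with an adjusted p of 0.303 without the block. Of 28 Wnt genes 4 rose (14.3%) and 2 fell (7.14%), Wnt11 and Ccn4, near or below the shares of all genes (10.2% and 11.8%). Of 29 matrix glycoproteins and proteoglycans, 7 rose (24.1%, against 10.2% of all genes) and 2 fell (6.9%, against 11.8%). In the TGF-beta and BMP list 6 of 28 fell (21.4%, against 11.8% of all genes) and 1 rose (3.57%, against 10.2%). The inhibitor Smad7 fell by 0.69 on the log2 scale, and did not pass without the day 0 library of experiment 2. Timp2, an inhibitor of matrix proteases, rose by 0.44 ± 0.132, with an adjusted p of 0.109 without the block.

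Of 21 preadipocyte and progenitor genes 4 rose (19%, against 10.2% of all genes). Pdgfra, the receptor that marks fat cell progenitors, held 127, 77, 153, 27.7 and 31.1 CPM on day 0 and 56.6 to 181 (median 127) on day 2. Its groups overlapped widely (0.85 ± 0.212, adjusted p = 0.00314; 0.452 without the block). Mest, an imprinted gene of growing fat tissue, rose by 0.98 ± 0.279 (adjusted p = 0.302 without the block) and stayed low in experiment 4 (18 and 41.4 CPM). Dlk1, a preadipocyte inhibitor of differentiation, was at or below 0.668 CPM in all 11 libraries.

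A few fat cell genes rose. Of 25 fat cell identity genes 4 rose (16%) and 1 fell, and of 32 PPAR targets 5 rose (15.6%) and 1 fell, shares near the 10.2% of all genes that were higher, 3 of the rises (Fabp4, Cd36 and Adipoq) being in both lists. Without the day 0 library of experiment 2, 2 of each list rose, and without that of experiment 1, 3 of the PPAR targets did. Fabp4 held 3.76, 5.37, 1.94, 15.3 and 4.3 CPM on day 0 and 37.3 to 194 (median 53.6) on day 2. All day 2 libraries were above all day 0 libraries, and the fold was 12 (log2 3.59 ± 0.935, adjusted p = 0.00451). Plin4, a lipid droplet coat protein, rose from 154, 189, 140, 70.4 and 65.1 CPM to 175 to 722 (median 314), with overlap (1.48 ± 0.35, adjusted p = 0.00185). Cpt1a, which admits fatty acids to mitochondria, rose by 0.83 ± 0.19 without overlap.

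Cd36 and Adipoq rose from almost nothing. Cd36, the fatty acid transporter, held 0.246, 0.175, 0.194, 0.111 and 0 CPM on day 0 and 1.08 to 11.7 (median 2.53) on day 2. Its fold of 23.5 (adjusted p = 0.0124) rests on those few counts, with a 95% interval of 3.75 to 147 and a value of 44.6 without the day 0 library of experiment 1, and it no longer passed without that of experiment 2. Adipoq, the hormone adiponectin, held 0.102, 0.0437, 0.194, 0.705 and 0.205 CPM on day 0 and 0.926 to 7.34 (median 2.88) on day 2, a fold of 10.7 (adjusted p = 0.0214). That fold was 7.06 without the day 0 library of experiment 2 and 30.3 without that of experiment 4, and it missed the threshold without the day 0 library of experiment 1, 2 or 5.

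The transcription factors of fat cell formation did not rise past the threshold. Pparg held 48.7, 45.9, 50.3, 64.5 and 48.2 CPM on day 0 and 41.7 to 70.1 (median 56.9) on day 2 (0.13 ± 0.258, adjusted p = 0.772; 95% interval of the fold 0.77 to 1.55). Cebpa had means of 2.77 and 3.98 CPM and Cebpd 43.2 and 37.2, and neither passed. Cebpb, an early factor of the programme, fell from 28.3, 41, 23.4, 34.5 and 27.2 CPM to 5.7 to 20.4 (median 13.1) without overlap (-1.34 ± 0.26, adjusted p = 0.000208). The PPAR targets Angptl4 (100 ± 70.9 and 197 ± 98.2 CPM), Pdk4 (79.3 ± 12.5 and 106 ± 34.9) and Plin2 (294 ± 139 and 289 ± 150) did not pass. Ybx1, the target of the other guide plasmid, had means of 693 ± 125 and 681 ± 75.5 CPM. Ucp1, the brown fat uncoupler, had at most 8 counts in any of the 11 libraries and was not tested.

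Acsl1, which activates fatty acids, held 40.1, 41.2, 52.6, 43.5 and 51 CPM on day 0 and 59.6 to 76.7 (median 63) on day 2, so that no library overlapped, yet its adjusted p was 0.504. The spread in that test is shared with the guide-transfected libraries, and with the EV libraries alone the change of 0.55 passed (adjusted p = 0.0199). Lipe, hormone-sensitive lipase, passed with the EV libraries alone and the block (adjusted p = 0.0335). It did not pass with those libraries and no block (0.0911) or in the main fit (0.483). With the EV libraries alone and the block, 8 fat cell identity genes, 7 PPAR targets and 11 fatty acid oxidation genes rose. That fit called 868 genes higher in all, against 1742 in the main fit. With no block these counts were 5, 5 and 8, among 370 genes higher. The shares near that of all genes given above for the fat cell and PPAR lists are those of the main fit.

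Fatty acid oxidation genes gave 6 rises among 25 (24%, against 10.2% of all genes), with a median of 0.32. Their summed CPM ran from 997 to 1100 on day 0 and from 1210 to 1710 on day 2. Ech1, an auxiliary enzyme for unsaturated chains, held 48, 34.9, 40.8, 22.3 and 24.6 CPM on day 0 and 56.7 to 94.4 (median 81.3) on day 2, with no overlap (1.20 ± 0.235, adjusted p = 0.000234). Acaa2 and Hadh, the thiolase and dehydrogenase of the spiral, rose by 0.96 and 0.74, and Hadh did not pass without the day 0 library of experiment 5. Of 41 nuclear genes of oxidative phosphorylation 2 rose, the complex II subunits Sdha (0.47) and Sdhc (0.40), against 10.2% of all genes. Both missed the threshold without the day 0 library of experiment 2, and Sdha also without that of experiment 5. Of 24 cholesterol genes Dhcr7 alone rose (0.94), a share of 4.17% and below that of all genes. Dhcr7 had an adjusted p of 0.25 without the block, and it missed the threshold without any of 7 single libraries. Of 19 lipid synthesis genes 3 rose (15.8%, against 10.2% of all genes), Scd2 by 0.82 (adjusted p = 0.133 without the block).

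The change from day 0 to day 2 was also set against that in P cells, which received the Pparg guide. In the same model the change differed past the threshold for 16 genes (0.094% of 17015), always with the larger rise in P, and 5 of them are fat cell or PPAR target genes. Cfd, the adipokine adipsin, was at or below 0.307 CPM in all 11 EV libraries, and its log2 change was larger in P by 7.25 ± 1.509 (adjusted p = 0.0311). For Gpd1, the glycerol phosphate dehydrogenase of triglyceride synthesis, the change was 0.54 in EV and 6.55 in P, a difference of 6.01 ± 1.011. The differences were 3.90 for Acsl1, 3.87 for Lipe and 3.08 for Agpat2, an acyltransferase of triglyceride synthesis. For Fabp4 the changes were 3.59 in EV and 4.52 in P, a difference of 0.93 ± 1.195 that did not pass, and for Plin4 and Cpt1a the differences were 0.039 ± 0.48 and 0.028 ± 0.266. Adipoq changed by 8.88 in P and 3.42 in EV, but that difference of 5.46 ± 1.823 did not pass either (adjusted p = 0.467). The number of such genes was unstable, at 1 without the EV day 0 library of experiment 1 and 29 without that of experiment 5.

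**Figure D4:**
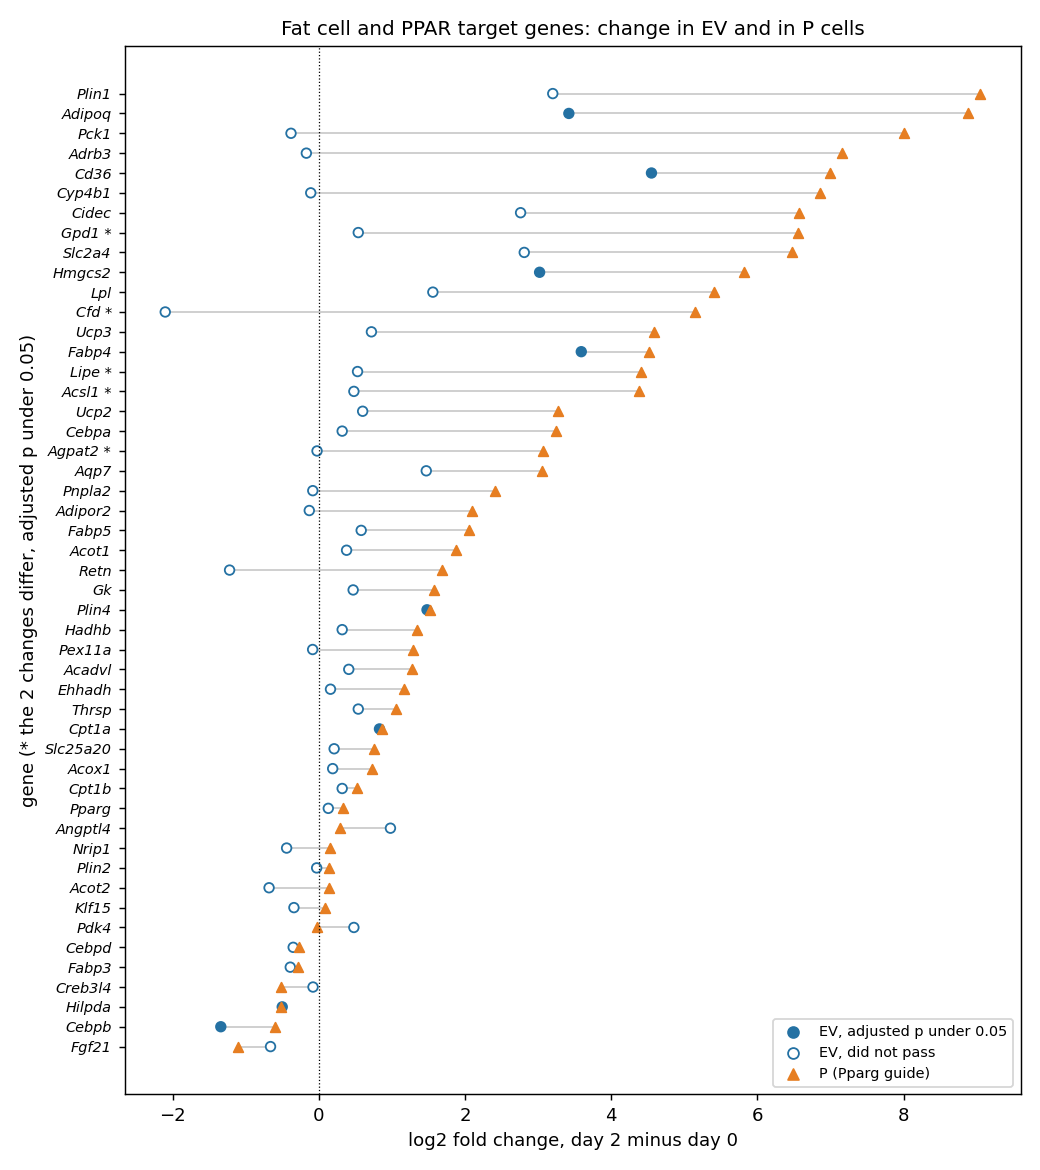
Fitted log2 change from day 0 to day 2 of fat cell identity and PPAR target genes in EV cells (circles, filled where the adjusted p is under 0.05) and in P cells (triangles), with an asterisk where the 2 changes differ past the threshold. For Fabp4, Plin4 and Cpt1a the 2 changes did not differ past the threshold, while for Gpd1, Cfd, Lipe, Acsl1 and Agpat2 they did. Those 5 lie more than 3 log2 units apart, as do some genes that did not pass, such as Pck1 and Adipoq.

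Levels on day 4 in the 6 EV libraries, given as a description, place day 2 in the course of the experiment. Mki67 had medians of 75, 233 and 129 CPM on days 0, 2 and 4, Ccnb2 of 15.6, 42.8 and 22.8, and Rrm2 of 45.4, 103 and 47.3. Cxcl10 had medians of 109, 12.2 and 8.18 CPM, and Cxcl1 of 49, 10.4 and 7.36. Igf1 went on upward, with medians of 21.1, 113 and 248 CPM, as did Col6a1 (679, 1350 and 1940). Fabp4 medians were 4.3, 53.6 and 39.3 CPM, with day 4 libraries from 11.9 to 148. Adipoq medians were 0.194, 2.88 and 7.07 CPM, with day 4 libraries from 0.834 to 67.4.

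**Figure D5:**
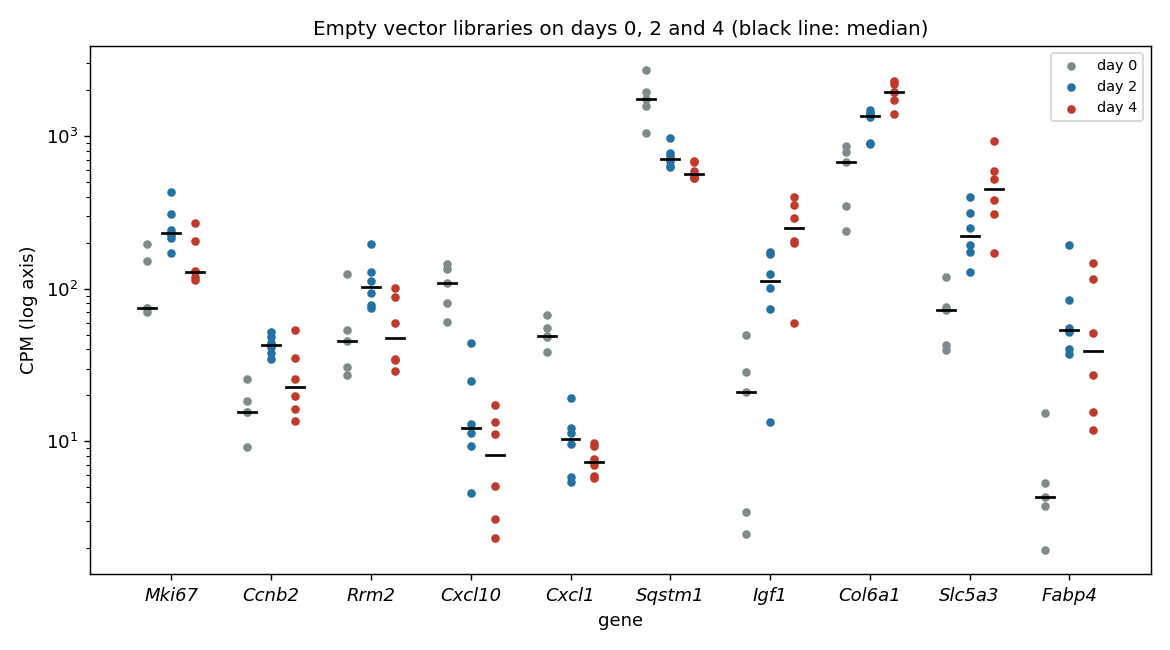
CPM on a log axis in each EV library of days 0, 2 and 4 for 10 genes, with a black line at the median. Mki67, Ccnb2 and Rrm2 are highest on day 2, Cxcl10, Cxcl1 and Sqstm1 are low on both later days, and Igf1, Col6a1 and Slc5a3 are highest on day 4.

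Smooth muscle and ribosomal protein genes showed few or no changes. Of 14 smooth muscle contractile genes 0 passed the edgeR test, 2 had an unadjusted p under 0.05 and 0 passed with DESeq2. Acta2, smooth muscle actin, held 2590, 4530, 855, 2100 and 4280 CPM on day 0 and 742 to 5250 (median 3570) on day 2. The day 2 library of experiment 2 was the lowest, and the fitted change of -0.79 ± 0.54 turned to 0.35 without the day 0 library of experiment 2. Of 34 cytosolic ribosomal protein genes 1 rose and 1 fell, below the shares of all genes.

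Of 17 circadian clock genes 7 fell (41.2%, against 11.8% of all genes) and 1 rose, among them the output repressors Nfil3 (-1.13 ± 0.167), Nr1d1 (-0.68) and Bhlhe40 (-0.61), and Nr1d1 missed the threshold without the day 0 library of experiment 1 or the day 2 library of experiment 2. The labels give the day of harvest and not the hour. Of 13 YAP and TEAD targets 4 fell (30.8%, against 11.8% of all genes). They included Ajuba (-0.63), Lats2 (-0.48) and Amotl2 (-0.40), and all 3 missed the threshold without the block.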

How the data were processed

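RNA was sequenced from 51 libraries made with a stranded total RNA kit after removal of ribosomal RNA, per the labels' protocols. The authors deposited a table of counts per gene, whole numbers that are not scaled between libraries. The submitters' processing notes list the tools edgeR 3.22.0, featureCounts 1.5.2 and STAR 2.5.3a, with the builds mm10 and GRCm38; the annotation release, the strand setting and the treatment of reads shared between genes are not given in the sources used here. Of 53801 gene IDs in the table, 53706 were matched to GENCODE M21, from which names, biotypes and coordinates (GRCm38) were taken.

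Counts were tested with edgeR 4.0.16 (R 4.3.3, limma 3.58.1): TMM scaling, filterByExpr with a minimum count of 10, a quasi-likelihood fit of all 51 libraries with 9 groups and experiment as an additive block, and Benjamini-Hochberg adjustment over the 17015 genes kept. The tests were two-sided, and 0.05 was the threshold. The contrasts were EV day 2 against day 0 and the difference of that change between P and EV. Experiment 6 has no EV day 0 library, and its day 2 library enters through the block. CPM used effective library sizes. Counting error is small at most of these depths except for genes near 1 CPM or below. In the day 0 library of experiment 3, with 5807051 counts in total, it also matters for genes at a few CPM.

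The pairing comes from the labels' experiment field. Deviations of day 0 and day 2 libraries from their group means correlated across genes with r of -0.102 to 0.679 (median 0.489) within an experiment and with a median of -0.0586 between experiments, and 3 of 5 day 0 libraries correlated best with the day 2 library of their own experiment. The block was kept because the comparison is defined by pairs, and the fit without it is an alternative. The labels name separate experiments. With the block, the p-values measure the spread left after each experiment's own level is removed. That spread is estimated over all 51 libraries and 9 groups, not over the EV libraries alone.

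The members and the 42 gene lists were chosen with earlier results of these data known. The genes named were (a) the 12 largest rises and falls among protein-coding genes that passed, with a mean of at least 5 CPM and 1 direction in all 5 experiments, (b) up to 4 members of each list that passed with at least 1 CPM and 1 direction in all 5 experiments, (c) 21 fixed genes and (d) up to 6 fat cell or PPAR target genes by the difference between P and EV. Other members named were chosen after their values were seen. Alternatives were no block, EV libraries alone, RLE and upper quartile factors, no filter, a minimum count of 50, DESeq2 1.42.0 and each library or EV pair left out. Leaving out experiment 3 and the recounts of lists were chosen after seeing the data. The test was also run on simulated counts with known changes, drawn from the same fitted model with its block and its spread. Such counts cannot show whether the block or the shared spread suits these data. Promoter windows were matched by symbol to RefSeq (GRCm38.p6); none of the histone genes matched. Lists were described by counts and medians, with no set test. Values of some single genes are not reported here.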

Additional observations from a re-analysis of the deposited data

Results flagged for a closer look

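A library stood far from the others of its day (Dixon's test at the 95% level) in 33 of 266 groups of values tested. For normal values in unrelated groups chance gives about 5%, or 1 in 20. Nearly all of these values are unlogged CPM, and the groups share the same 11 libraries. The count of 33 therefore cannot be weighed against that rate. No cause was tested for any of these values.

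Most of them came from experiment 4. On day 2 its EV library was the highest for the YAP target Ajuba (262 CPM, the others 107 to 165), Atf4 (368, the others 174 to 246), Fabp4 (194, the others 37.3 to 84.6), Fosl1 (194, the others 12.5 to 52.2) and the neurotrophic factor Gdnf (12.8, the others 1.34 to 4.96). It was also the highest for Hk2 (114, the others 25.8 to 51.4), the laminin chain Lamb1 (455, the others 208 to 249), Mdm2 (235, the others 155 to 181), Plin2 (588, the others 191 to 284) and Plk2 (497, the others 128 to 255). The same held for Smad7 (131, the others 35.8 to 60.3), Sprr1a (45.1, the others 5.22 to 13.7) and Vegfa (197, the others 34.5 to 57.2). Mest was lowest there, at 41.4 CPM against 318 to 441. On day 0 the library of experiment 4 was the highest for Adipoq (0.705 CPM, the others 0.0437 to 0.205), Fabp4 (15.3, the others 1.94 to 5.37), Plin2 (533, the others 176 to 273), Pparg (64.5, the others 45.9 to 50.3), Rrm2 (125, the others 27.2 to 53.8) and Sprr1a (11.7, the others 1.47 to 3.48).

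Among the other experiments, experiment 5 was highest on day 0 for Rsad2 (611 CPM, the others 211 to 325) and the interferon-inducible gene Ifi205 (36.9, the others 19 to 23), and on day 2 for C1qtnf1 (16.1, the others 9.19 to 11.3). Experiment 3 was highest for Cenpf on day 0 (86.1, the others 25 to 42.6) and for the chemokine Cxcl9 on day 2 (8.5, the others 1.31 to 2.89). Experiment 2 was highest on day 2 for Lipe (16.1, the others 7.7 to 10.7) and Plin4 (722, the others 175 to 357), and lowest for the ribosomal protein gene Rpl19 on day 2 (215, the others 269 to 300) and for Tsc22d3 on day 0 (29.7, the others 38 to 41).

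Of the library totals, the day 2 library of experiment 1 held 71091681 counts, against 11261100 to 22487133 in the others of day 2. In experiment 3, protein-coding genes took 84.8% of the day 0 counts against 93.1% to 94.8%, and the 10 highest genes took 24.2% on day 0 (the others 7.44% to 8.52%) and 14.2% on day 2 (the others 7.51% to 9.74%).

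The change from day 0 to day 2 differed between P and EV cells for 16 genes by the interaction term of the edgeR model, adjusted over 17015 genes, of which 15 are given. The log2 difference, P minus EV, was 10.61 for the fatty acid receptor gene Ffar4, 7.25 for Cfd, 6.73 for Gm9899, 6.01 for Gpd1, 5.51 for Il2ra and 5.33 for Nat8l. It was 4.01 for the sorting receptor gene Sort1, 4.0 for Fam213a, 3.99 for Rgcc, 3.9 for Acsl1, 3.87 for Lipe, 3.37 for the peroxisomal thiolase Acaa1b, 3.08 for Agpat2, 2.72 for Sh2b2 and 0.79 for Hs6st1. The values for Ffar4 (mean of 0.0825 CPM on day 0 and 0 in every EV library of day 2), Gm9899 (0.0561 and 0.00434 CPM), Il2ra (0.0459 and 0.0342), Cfd (0.199 and 0.0667) and Nat8l (0.161 and 0.241) rest on EV counts at or near 0, so their size is uncertain.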

How the results depend on the processing

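Without the replicate block of experiment, 1241 genes passed (488 higher, 753 lower), with 3 DNA replication, 2 histone, 16 interferon, 5 AP-1 and 3 collagen genes, and 10 genes for the difference between P and EV. With the EV libraries of days 0 and 2 alone and the block, 1721 passed (868 higher, 853 lower), with 14 DNA replication, 6 histone, 11 NF-kB and 5 AP-1 genes, 8 fat cell identity and 11 fatty acid oxidation genes. With those libraries and no block, 873 passed (370 higher, 503 lower), with 4 DNA replication, 6 histone, 17 interferon, 10 NF-kB, 1 AP-1, 5 NRF2 and 3 collagen genes. With no filter 1317 genes were lower and 65 differed between P and EV. DESeq2 gave 7 fat cell identity genes and 92 for P against EV. Of the genes that passed without the block all 1241 had passed with it, in the same direction. RLE and upper quartile factors (3814 and 3810 genes) and the stricter filter (3685) moved no count of genes by more than 1.5 times.

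Over the libraries and EV pairs left out in turn, the number of genes ran from 2286 to 3984 (1074 to 1869 higher, 1212 to 2115 lower). Members counted ran from 29 to 29 for mitosis, 14 to 25 for DNA replication, 2 to 13 for histones, 22 to 29 for interferon, 15 to 19 for NF-kB, 6 to 16 for AP-1, 8 to 9 for NRF2, 2 to 5 for fat cell identity and 2 to 5 for PPAR targets. Fatty acid oxidation gave 4 to 8, collagens 4 to 7, and the difference between P and EV 1 to 29 genes. Without experiment 3, a choice made after seeing the data, 3907 genes passed. Of 114 named genes that passed, 54 no longer did without the block, 29 with EV alone, 56 with EV alone and no block, 5 with no filter and 0 with DESeq2, and none turned in direction in any of these fits.

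Of the named genes that did not pass, Acta2 turned from -0.79 to 0.13 without the block and 0.12 with EV alone and no block (-1.14 to 0.35 over libraries left out). Agpat2 turned from -0.024 to 0.034 without the block, 0.018 with EV alone, 0.033 with EV alone and no block, 0.00076 with the stricter filter and 0.034 without experiment 3 (-0.2 to 0.094 over libraries left out). Plin2 turned from -0.029 to 0.059 with EV alone (-0.16 to 0.063), and with libraries left out Ybx1 ran from -0.12 to 0.032 and Dlk1 from -0.95 to 0.55. The cause of these shifts was not tested. Genes near or below 1 CPM, such as Cd36 and Adipoq on day 0, rest on few counts.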

Other observations

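Several gene groups outside the main changes also held genes that passed the edgeR test (adjusted p under 0.05 over 17015 genes); those named here were chosen after their values were seen. Of 18 glucocorticoid and cAMP responsive genes 5 fell (27.8%, against 11.8% of all genes) and 0 rose. They were the kinase gene Sgk1 (265 ± 157 to 144 ± 138 CPM, adjusted p = 0.0119), the EGF receptor inhibitor Errfi1 (-0.99), the metallothionein Mt2 (-1.01), Klf9 (-0.42) and Tsc22d3 (-0.33). Their groups overlapped in each case, and Tsc22d3 missed the threshold without the block. Of 23 genes of lysosome and autophagy 3 rose (13%) and 4 fell (17.4%), near the shares of all genes (10.2% and 11.8%). The largest fall among them was that of Sqstm1 (-1.26). Gabarapl1, an autophagosome protein, went from 118 ± 11.9 to 76 ± 15.8 CPM without overlap (adjusted p = 0.000308), while the hexosaminidase chain Hexa rose by 0.42 and missed the threshold without the block. Of 23 matrix remodelling genes 4 rose (17.4%, against 10.2% of all genes) and 2 fell (8.7%, against 11.8%). Among the rises were the collagenase activator Mmp14 (333 ± 66.9 to 455 ± 50.2 CPM) and the gelatinase Mmp2 (253 ± 70.7 to 343 ± 87.3). The protease inhibitor Timp1 (-0.87) was among the 2 that fell, and it missed the threshold without the block.

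Of 10 LXR targets Lpcat3, a phospholipid acyltransferase, alone rose (10%, near the 10.2% of all genes). It went from 56.2 ± 5.26 to 95.8 ± 12.6 CPM without overlap (0.76, adjusted p = 0.0185, and 0.0568 without the day 0 library of experiment 5). Of 15 thermogenic genes Ebf2, a brown fat factor, alone rose (6.67%, below the 10.2% of all genes), from 1.36 ± 0.707 to 2.97 ± 1.99 CPM. It missed the threshold without the block (adjusted p = 0.125), with the EV libraries alone (0.0623) and without the EV pair of experiment 2 (0.0856). Of 11 complement genes 2 rose (18.2%, against 10.2% of all genes) and 1 fell (9.09%, against 11.8%). Of 15 genes of the IGF and insulin axis the receptor Igf2r (0.36) rose beside Igf1 (13.3%, near the 10.2% of all genes). Of 5 skeletal muscle genes 2 rose (40%, against 10.2% of all genes), Actc1 and Mylpf, both below 1 CPM on average on both days. Of 10 cartilage and bone genes 0 passed the edgeR test, with 2 at an unadjusted p under 0.05 and 0 with DESeq2, and of 7 mitochondrially encoded messages 0 passed, with 0 at an unadjusted p under 0.05 and 0 with DESeq2.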
